A study of Mus musculus with 6 samples.

Results

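Genes of mitosis, the spindle and the kinetochore were examined in growth plate samples of Lkb1 mutant mice, which the labels title chondrocytes. The 55 genes were picked by name for their roles in cell division. They were picked with earlier results of these data known. Of the 55, 54 were measured by a probe set annotated to a single gene, among 17020 genes tested in all. Each of the 54 passed the filter on low intensity. Ccnb1, which encodes cyclin B1, had no such probe set and is not analysed here. The samples were 3 arrays from mice with a conditional mutation of Lkb1 and 3 arrays from control mice, all of them total RNA of femoral and tibial growth plates at postnatal day 30 on a mixed FVB, 129S6 and C57CL/6 background. Lkb1 is the older name of Stk11, a kinase gene. The sources used here do not give the Cre driver, the Lkb1 allele or the exact genotype of the controls. The labels call the arrays biological replicates without naming separate animals or litters, so every p-value measures the spread between these samples.

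A dividing chondrocyte condenses its chromosomes, builds a spindle, attaches each sister chromatid to it through a kinetochore and then splits into daughter cells. Cyclin A2 and the B-type cyclins activate the kinase CDK1 to start this sequence, Aurora and Polo-like kinases steer it, and the spindle checkpoint holds the anaphase-promoting complex back until every kinetochore is attached. In the growth plate, division takes place mainly in the columns of flat proliferating chondrocytes, and cells leave the cycle as they become hypertrophic. Most genes of the list are transcribed in the G2 and M phases, so their transcript levels are widely used as a measure of how many cells in a sample are dividing.

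Many promoters active in G2 and M carry a CCAAT box, bound by NF-Y, and a cell cycle genes homology region with the core TTTGAA, bound by the MuvB complexes. To let their letters be compared, 6 promoter windows are shown. They are those of Mki67 and Kif11, Ccnb2 and Cdk1 from the entry kinase, Cenpa from the centromere, and Nusap1, which had neither motif. All the other windows shown hold both motifs, a larger share than among the windows of the whole list, given below. Each runs from 200 bases before the RefSeq transcript start to 30 bases after it, 5′ to 3′ on the gene's strand, on GRCm38.p6. Capitals mark TTTGAA and CCAAT or their reverse complements, TTCAAA and ATTGG.
Mki67, chr7:135716350-135716579, minus strand: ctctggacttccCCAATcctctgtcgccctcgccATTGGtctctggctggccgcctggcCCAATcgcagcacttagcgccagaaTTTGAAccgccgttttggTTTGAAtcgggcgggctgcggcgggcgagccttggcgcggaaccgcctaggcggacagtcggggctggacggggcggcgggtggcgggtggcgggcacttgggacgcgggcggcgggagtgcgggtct
Ccnb2, chr9:70421525-70421754, minus strand: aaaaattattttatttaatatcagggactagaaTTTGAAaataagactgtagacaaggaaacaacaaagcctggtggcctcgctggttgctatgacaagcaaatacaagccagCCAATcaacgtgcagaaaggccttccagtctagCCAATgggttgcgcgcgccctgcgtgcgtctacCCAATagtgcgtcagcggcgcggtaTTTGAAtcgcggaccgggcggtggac
Cdk1, chr10:69352883-69353112, minus strand: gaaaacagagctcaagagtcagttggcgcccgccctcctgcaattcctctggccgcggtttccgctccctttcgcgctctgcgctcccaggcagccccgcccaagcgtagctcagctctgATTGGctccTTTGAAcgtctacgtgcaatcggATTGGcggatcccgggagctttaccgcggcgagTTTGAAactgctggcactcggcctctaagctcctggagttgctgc
Kif11, chr19:37376182-37376411, plus strand: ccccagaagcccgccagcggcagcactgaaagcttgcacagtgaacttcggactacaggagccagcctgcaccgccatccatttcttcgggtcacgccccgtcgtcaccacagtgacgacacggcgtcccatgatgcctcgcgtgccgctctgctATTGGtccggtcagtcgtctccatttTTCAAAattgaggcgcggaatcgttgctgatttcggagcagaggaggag
Cenpa, chr5:30666686-30666915, plus strand: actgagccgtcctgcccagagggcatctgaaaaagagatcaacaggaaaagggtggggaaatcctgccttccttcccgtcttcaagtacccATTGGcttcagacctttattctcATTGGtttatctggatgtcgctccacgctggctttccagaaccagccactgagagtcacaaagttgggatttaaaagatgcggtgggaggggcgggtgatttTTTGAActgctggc
Nusap1, chr2:119618098-119618327, plus strand: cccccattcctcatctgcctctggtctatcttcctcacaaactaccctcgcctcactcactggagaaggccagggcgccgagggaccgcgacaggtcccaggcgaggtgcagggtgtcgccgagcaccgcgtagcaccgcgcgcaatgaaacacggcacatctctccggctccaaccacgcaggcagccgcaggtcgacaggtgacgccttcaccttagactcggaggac

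In the Ccnb2 window, 3 CCAAT boxes stood 33 bases apart from each other, and a TTTGAA began 4 bases after the first transcribed base. The Cdk1 window held a pair of ATTGG boxes 32 bases apart and a TTTGAA that began 15 bases before the start. Windows of 300 bases, from 250 before to 50 after the start, were listed for 45 of the 54 measured genes, with 50 windows in all. Of those 50, 34 held TTTGAA on either strand, or 68%, against 17.9% of the 32851 promoter windows of all genes. CCAAT was found in 37 of 50 windows, or 74%, against 37.4% of all windows. Both motifs stood in 29 windows, or 58%, against 6.95% of all windows. Matches of the motifs can share letters at their ends, and a match is a description of these windows, not evidence of binding. Genes with a TTTGAA had a median difference between mutant and control of -0.92 on the log2 scale, and those without one -0.94; this split was not tested.

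**Figure D1:**
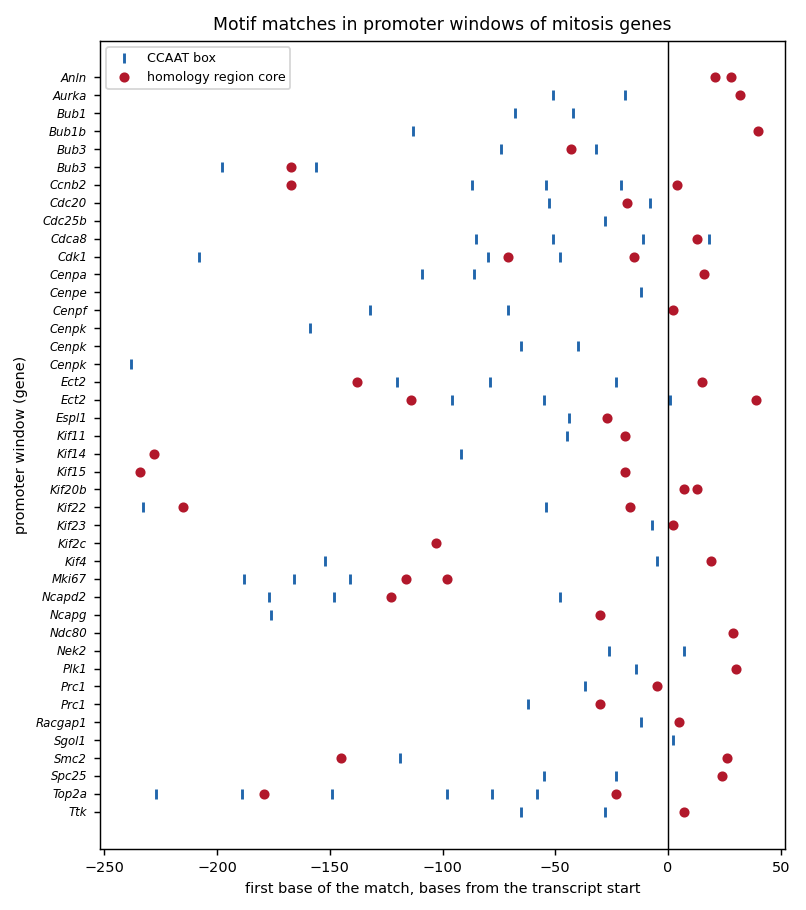
Matches of CCAAT (blue bars) and TTTGAA (red points) on either strand in promoter windows of mitosis genes, 1 row per window with a match, against the distance in bases from the transcript start. Of 45 TTTGAA matches, 31 began within 50 bases of the start, and 66 of 70 CCAAT matches began before it. The windows run from 250 bases before the start to 50 after it, so most positions lie before it. Windows of the same gene can overlap and count a match again.

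On the whole series, array medians lay between 82.4 and 90.5 on the linear intensity scale. Levels below are log2(intensity + 1), and a difference is the mutant mean minus the control mean on that scale. Stk11 was at 7.39, 7.51 and 7.52 on the mutant arrays, against 8.68, 9.08 and 9.67 on the control arrays, a difference of -1.67 (SE 0.22, limma adjusted p = 0.00387). Where its probes lie relative to the deleted part was not analysed here. The control arrays ranked alike for Stk11 and for the mean of the marrow markers given below. What part the marrow level has in the Stk11 difference was not tested. The 8 chondrocyte markers averaged 11.79 to 11.89 on the mutant arrays and 11.85 to 11.96 on the control arrays, among them Col2a1 and Acan, whose differences were 0.04 and -0.03. Markers of marrow cells separated the groups. Their 26 measured genes averaged 6.30, 6.28 and 6.01 on mutant arrays 1, 2 and 3, against 8.56, 9.33 and 10.05 on control arrays 1, 2 and 3. Of the 1035 probe sets of olfactory receptors, which serve as a background, 95% lay below 6.49 to 6.73 on the mutant arrays and below 6.40 to 6.65 on the control arrays. By that measure 5 of the 26 marrow genes were above background on every mutant array, against 25 on every control array.

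The measured mitosis genes were lower in the mutants as a group. Of the 54, 41 fell and none rose at an adjusted p under 0.05 (limma, Benjamini-Hochberg over all genes tested), or 75.9%, where 6.82% of all genes tested were called lower. All 54 differences were negative, from -1.94 for Mki67 to -0.31 for Bub3, with a median of -0.93 against 0.03 for all genes tested. For 52 of the 54, every mutant array was below every control array, which held for 16.7% of all genes tested. The fold decrease of the 41 called genes ran from 1.42 to 3.83, and 20 of them fell by at least 1 on the log2 scale, a size of decrease called in 2.67% of all genes tested. In RNA from a whole tissue, fewer dividing cells and less of these transcripts per cell cannot be told apart. Nor do the arrays show which cells of the samples, chondrocytes or marrow cells, these transcripts came from.

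The control arrays differed among themselves far more than the mutant arrays did. Over the 54 genes the mean level was 6.96, 7.02 and 6.97 on mutant arrays 1, 2 and 3, against 7.54, 7.81 and 8.37 on control arrays 1, 2 and 3. Control replicate 3 was the highest control for 52 genes, against 44.4% of all genes tested, and control replicate 1 was the lowest for 46, against 41.8%. Per gene, the SD had a median of 0.08 over the mutant arrays and 0.44 over the control arrays. Over all genes tested these medians were 0.096 for the mutant and 0.155 for the control arrays. The mean of the marrow markers put the control arrays in the same order. It does not overlap between the groups. Between mutants and controls, its part in the mitosis values therefore cannot be told apart from that of the mutation. From control replicate 1 to control replicate 3 the levels differed by a median of 0.83 for the mitosis genes and 1.34 for the marrow markers. From control replicate 1 to the mutant mean, the median differences were -0.58 for the mitosis genes and -2.35 for the marrow markers.

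**Figure D2:**
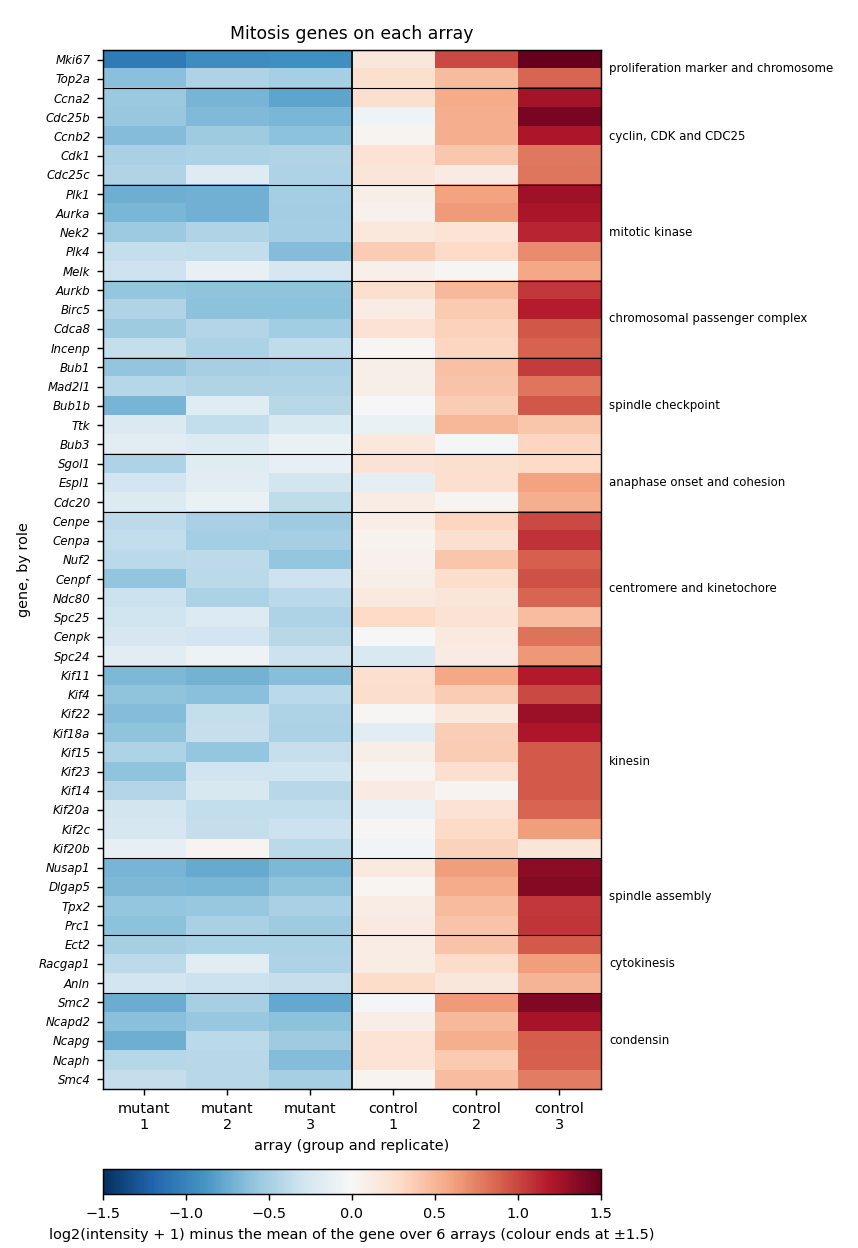
Level of each of the 54 measured mitosis genes (rows, by role) on the 3 mutant and 3 control arrays (columns), as log2(intensity + 1) minus the mean of the gene over 6 arrays, blue below and red above it. The mutant columns are blue almost throughout, and control replicate 3 is the reddest column for 52 genes.

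Setting the mutants against control replicate 1 alone, the control array with the least marrow signal, kept the sign for 53 of the 54 genes. The median was then -0.58 and the range -1.14 to 0.04, with Spc24 as the exception. Every mutant array was below control replicate 1 for 52 of the 54 genes, against 29.3% of all genes tested. A single control has no spread of its own, so no test was made there. With the marrow level of each array as a covariate the median was 0.75, higher in the mutants, against 0.16 for all genes tested. In this fit 49 of the 54 differences were positive and none was called in either direction. Only 6 of all genes tested were called in it. The marrow level does not overlap between the groups, so this fit extends the trend within the groups over a range that holds no array.

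The number of called genes also depended on single arrays. It was 15 without control replicate 2, and 12, 14 and 10 without mutant replicates 1, 2 and 3. Without control replicate 1 it was 49 and without control replicate 3 it was 44. Over all genes tested, 1161 were called lower with all arrays. That number was 599 without control replicate 2, and 545, 522 and 424 without mutant replicates 1, 2 and 3. It was 1640 without control replicate 1 and 1208 without control replicate 3. The 10 mitosis genes called lower whichever array was left out were Mki67, Top2a, Ccna2, Cdk1, Plk4, Aurkb, Spc25, Kif4, Kif11 and Ncapg. How many of all genes tested kept their call in this way was not counted. No measured mitosis gene had a positive difference in any of these 6 fits.

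Mki67, which encodes the proliferation antigen Ki-67 that coats mitotic chromosomes, had the largest difference of the list. Its level was 8.19, 8.32 and 8.33 on the mutant arrays, against 9.42, 10.24 and 10.99 on the control arrays. The difference of -1.94 (SE 0.34, n = 3 per group) had a limma adjusted p of 0.0105, a 3.83-fold decrease. The control arrays spanned 1.57 and the mutant arrays did not come within 1.09 of the lowest control. Top2a, the topoisomerase that untangles sister chromatids, was at 8.37, 8.54 and 8.49 on the mutant arrays, against 9.24, 9.47 and 9.87 on the control arrays. It fell by 1.06 (SE 0.16), and its limma adjusted p of 0.00575 was the lowest of the list. A dimmer second probe set of Top2a, at 3.22 to 3.74 on the mutant arrays and 3.35 to 4.01 on the control arrays, was under background everywhere and differed by -0.15.

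Cyclins and the CDK1 kinase fell together, with all 5 measured genes of this group called lower. Ccna2, cyclin A2, was at 8.84, 8.71 and 8.62 on the mutant arrays, against 9.64, 9.96 and 10.65 on the control arrays, a difference of -1.36 (SE 0.24, limma adjusted p = 0.00999). Ccnb2, cyclin B2, was at 8.63, 8.75 and 8.67 on the mutant arrays, against 9.33, 9.84 and 10.50 on the control arrays, a difference of -1.20 (limma adjusted p = 0.0217). Cdk1 itself was at 8.50, 8.52 and 8.54 on the mutant arrays, against 9.21, 9.39 and 9.78 on the control arrays. The groups were apart by 0.67, more than the 0.58 that the controls spanned, and the difference was -0.94 (SE 0.15, limma adjusted p = 0.00656). The phosphatases that activate CDK1 fell as well. Cdc25c was at 5.89, 6.14 and 5.87 on the mutant arrays, against 6.52, 6.46 and 7.13 on the control arrays, a difference of -0.74 that is limited by background in all mutants. Cdc25b fell by 1.28, with an adjusted p of 0.124 in its weakest fit with 1 array left out.

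Among the mitotic kinases, 4 of 5 fell. Plk1, the Polo-like kinase of mitotic entry and spindle poles, was at 7.0, 7.02 and 7.22 on the mutant arrays, against 7.83, 8.34 and 9.01 on the control arrays, a difference of -1.31 (SE 0.27, limma adjusted p = 0.0181). Aurka, the Aurora kinase of the centrosome, fell by 1.29, and Nek2, which separates the centrosomes, fell by 1.01. Plk4, which drives centriole duplication, was at 7.48, 7.47 and 7.18 on the mutant arrays, against 8.21, 8.13 and 8.55 on the control arrays. Its control arrays lay close to each other compared with those of Plk1, and it fell by 0.92 (SE 0.14, limma adjusted p = 0.00621). Melk was at 6.19, 6.39 and 6.25 on the mutant arrays, against 6.58, 6.53 and 7.09 on the control arrays. Its difference of -0.45 did not pass (limma adjusted p = 0.101), and it was at background on every mutant array.

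All 4 genes of the chromosomal passenger complex, which corrects faulty attachments of chromosomes to the spindle, were called lower. Aurkb, its kinase, was at 7.86, 7.83 and 7.83 on the mutant arrays, against 8.68, 8.92 and 9.50 on the control arrays, a difference of -1.19 (SE 0.20, limma adjusted p = 0.00799). Incenp, its scaffold, was at 6.45, 6.33 and 6.43 on the mutant arrays, against 6.82, 7.13 and 7.70 on the control arrays, a difference of -0.81 (limma adjusted p = 0.0371). Birc5, which encodes survivin, fell by 1.12, and Cdca8, which encodes borealin, by 1.0. Birc5, Cdca8 and Incenp were at background on every mutant array, so their decreases are limited by it.

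In the spindle checkpoint 3 of 5 genes fell. Bub1, a checkpoint kinase, was at 6.57, 6.66 and 6.67 on the mutant arrays, against 7.24, 7.59 and 8.21 on the control arrays, a difference of -1.05 (SE 0.22, limma adjusted p = 0.0202). Mad2l1, which restrains the anaphase-promoting complex, fell by 0.88, and Bub1b, which encodes BUBR1, by 0.87. Bub3, the partner of both BUB proteins, had the smallest difference of the whole list, at 8.89, 8.83 and 8.94 on the mutant arrays, against 9.2, 9.02 and 9.37 on the control arrays. Its groups were only 0.08 apart, and the difference of -0.31 (SE 0.11) was not called (limma adjusted p = 0.105). The checkpoint kinase gene Ttk differed by -0.54 (limma adjusted p = 0.0606).

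Of the 3 genes of anaphase onset and cohesion, 1 fell. Sgol1, shugoshin, which shields cohesin at centromeres, was at 6.19, 6.46 and 6.53 on the mutant arrays, against 6.87, 6.89 and 6.95 on the control arrays. Its control arrays lay within 0.08 of each other, the narrowest spread of any member, and it fell by 0.51 (SE 0.11, limma adjusted p = 0.0219). Cdc20, which activates the anaphase-promoting complex, was at 7.41, 7.52 and 7.23 on the mutant arrays, against 7.73, 7.66 and 8.16 on the control arrays, a difference of -0.46 that was not called (limma adjusted p = 0.0833). Espl1, separase, which cuts cohesin, differed by -0.48 (limma adjusted p = 0.115) and was at background on every mutant array.

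Of 8 centromere and kinetochore genes, 6 fell. Cenpe, a kinetochore motor, was at 5.97, 5.88 and 5.83 on the mutant arrays, against 6.46, 6.68 and 7.35 on the control arrays, a difference of -0.94 (SE 0.21, limma adjusted p = 0.0257) that is limited by background. Cenpa, the histone H3 variant that marks centromeres, fell by 0.92, and Cenpf, a large kinetochore protein, fell by 0.87. The subunits of the NDC80 complex, which grips microtubules, went apart in the test. Nuf2 fell by 0.92, Ndc80 by 0.80 and Spc25 by 0.65, and Spc25 kept its call whichever array was left out. Nuf2 and Spc25 were at background on every mutant array and Ndc80 on 2 of 3, so these decreases are limited by it and their order is not settled. Spc24, which pairs with Spc25, was at 6.05, 6.13 and 5.88 on the mutant arrays, against 5.98, 6.33 and 6.86 on the control arrays. Its groups overlapped, its difference was -0.37 (limma adjusted p = 0.291), and it was at background on all mutant arrays and on 2 of 3 control arrays, so that its level was barely measured. Whether Spc24 and Spc25 differ in their response was not tested. Cenpk differed by -0.64 (limma adjusted p = 0.0728).

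Of 10 kinesins, 4 fell and the other 6 had negative differences that were not called. Kif11, which pushes the spindle poles apart, was at 7.61, 7.59 and 7.65 on the mutant arrays, against 8.54, 8.87 and 9.48 on the control arrays, a difference of -1.35 (SE 0.22, limma adjusted p = 0.00733). Kif4, a motor of chromosome arms and the midzone, fell by 1.09, Kif15 by 0.92 and Kif2c, which takes microtubules apart at kinetochores, by 0.62. Kif20b was at 5.85, 6.01 and 5.55 on the mutant arrays, against 5.92, 6.31 and 6.14 on the control arrays, at background on every array, and its groups overlapped. Kif22 and Kif18a had differences as large as those of called genes, -0.98 and -0.94, with SEs of 0.31 each and adjusted p-values of 0.0792 and 0.0840 in limma. Their control arrays spanned 1.28 for Kif22 and 1.38 for Kif18a. Kif18a was above background on no mutant array and Kif22 on only 1, so both differences are limited by background. Kif23 missed the threshold narrowly (-0.80, limma adjusted p = 0.0509). A second probe set of Kif14, under background on all 6 arrays, differed by 0.12 where the brighter set differed by -0.73, so that the sets disagree in sign.

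All 4 genes of spindle assembly fell. Nusap1, which bundles microtubules near chromosomes, was at 7.65, 7.59 and 7.67 on the mutant arrays, against 8.49, 8.97 and 9.69 on the control arrays, a difference of -1.41 (SE 0.26, limma adjusted p = 0.0130). Its promoter window, printed above, holds neither motif. Dlgap5, a spindle protein of the chromosomes, fell by 1.31 and Tpx2, which activates Aurora A on the spindle, by 1.10. Prc1, which crosslinks the spindle midzone, was at 7.20, 7.33 and 7.29 on the mutant arrays, against 7.96, 8.25 and 8.90 on the control arrays, a difference of -1.09 (limma adjusted p = 0.0167).

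The 3 cytokinesis genes fell. Ect2, the exchange factor that activates RHOA at the cleavage site, was at 7.39, 7.41 and 7.41 on the mutant arrays, against 8.0, 8.31 and 8.80 on the control arrays, a difference of -0.97 (SE 0.19, limma adjusted p = 0.0147). Racgap1, a centralspindlin subunit that binds ECT2, fell by 0.68. Anln, anillin, a scaffold of the contractile ring, was at 8.11, 8.08 and 8.05 on the mutant arrays, against 8.67, 8.56 and 8.90 on the control arrays. It fell by 0.63 (SE 0.11, limma adjusted p = 0.00939), and the gap between its groups, 0.45, was wider than the 0.34 its controls spanned.

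All 5 condensin genes fell. Smc2, a core subunit of both condensins, was at 6.83, 7.09 and 6.82 on the mutant arrays, against 7.55, 8.22 and 8.97 on the control arrays, a difference of -1.34 (SE 0.31, limma adjusted p = 0.0296). Its partner Smc4 was at 8.55, 8.49 and 8.41 on the mutant arrays, against 8.94, 9.37 and 9.67 on the control arrays, a difference of -0.84 (SE 0.18, limma adjusted p = 0.0191). The subunits of condensin I lay between them, with Ncapd2 lower by 1.21, Ncapg by 1.11 and Ncaph by 1.0 in the mutants. Ncapg was at background on every mutant array, so its place in this order is not settled.

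**Figure D3:**
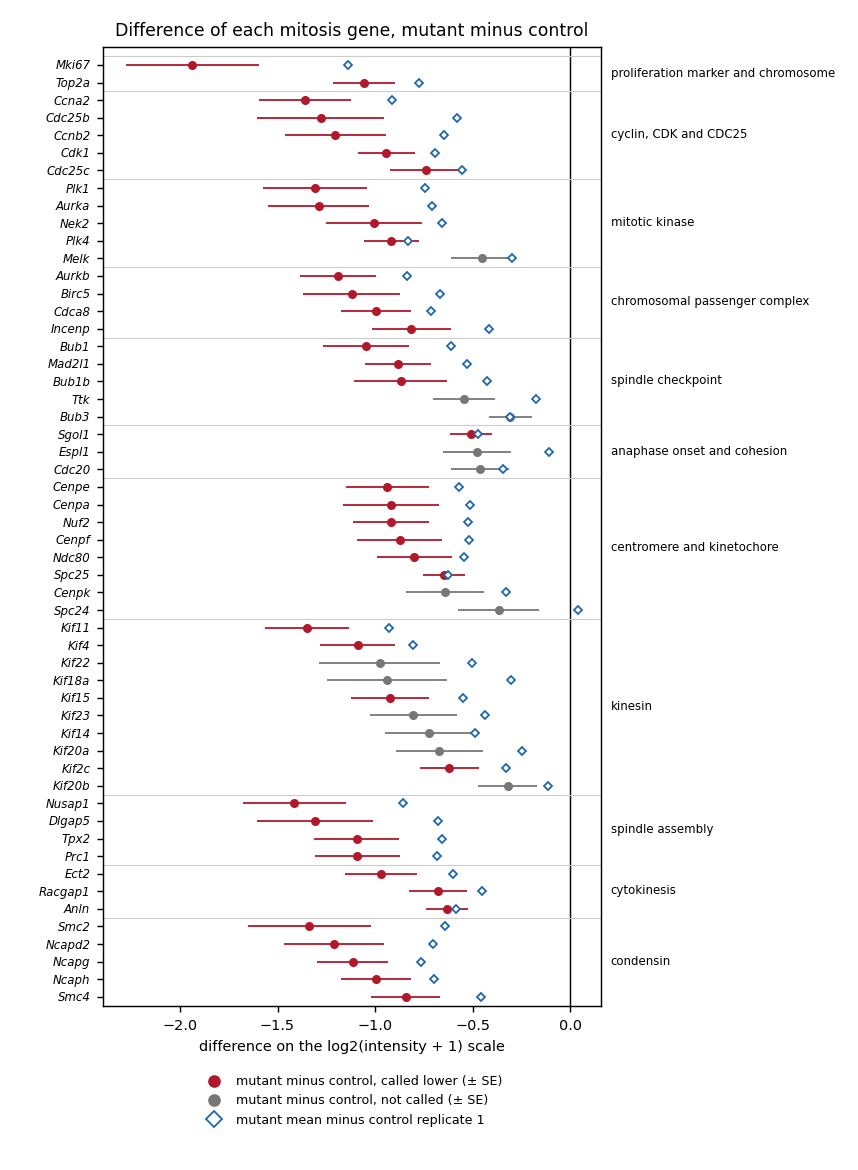
Difference of each measured mitosis gene, mutant minus control, on the log2(intensity + 1) scale with its SE (n = 3 arrays per group), red where called lower and grey where not, and the mutant mean minus control replicate 1 as open blue diamonds. All 54 differences lie left of 0, and the diamonds lie nearer to 0 for most genes, with Spc24 at 0.04.

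For 6 genes the gap between the lowest control and the highest mutant array was wider than the whole span of the controls, a feature sought after the values were seen. They were Top2a, Cdk1, Plk4, Sgol1, Spc25 and Anln, or 11.1% of the 54, where 4.43% of all genes tested had such a gap. Such a gap was also found for 14 of the 26 measured marrow markers, or 53.8%. The controls of the 6 mitosis genes spanned 0.08 to 0.63.

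Signal over background limited the smaller genes. On every mutant array 27 of the 54 were above background, on every control array 46 were, and 20 were above it on no mutant array. Of the 27, 23 were called lower, with a median difference of -1.0 over the 27. Of the 20 at background in all mutants, 12 were called lower, with a median difference of -0.78. The decreases of those 20, among them Kif4, Kif15, Kif2c, Dlgap5 and Ncapg, are limited by the background, and their sizes cannot be ranked.

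Other genes of mitosis outside the list moved the same way in smaller numbers. Of 109 listed, 105 were tested, and 32 fell and 1 rose, or 30.5% called lower, against 6.82% of all genes tested, with a median difference of -0.33. Every mutant array was below every control array for 61 of the 105, or 58.1%, against 16.7% of all genes tested. The activators of G2 and M transcription Foxm1 and Mybl2 fell by 0.94 (SE 0.14, limma adjusted p = 0.00515) and 0.97 (SE 0.20), while the 4 measured MuvB genes Lin9, Lin37, Lin52 and Lin54 had differences of -0.32 to -0.13, none called; these 4 are named after their values were seen. Foxm1 was at 7.28, 7.17 and 7.22 on the mutant arrays, against 7.92, 8.13 and 8.44 on the control arrays.

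Of 10 entry regulators 4 fell, led by the CDK adaptors Cks2 (-1.08) and Cks1b (-0.66). Of 17 genes of the anaphase-promoting complex and its partners 2 fell, or 11.8%, near the 6.82% of all genes tested. They were Fbxo5, which encodes the inhibitor EMI1 (-1.91, SE 0.36, limma adjusted p = 0.0128), and Ube2c, its ubiquitin-conjugating enzyme (-1.24). Fbxo5 was at background on every mutant array, so its decrease is limited by it. Fzr1, which encodes the activator CDH1 and is named after its values were seen, had a difference of -1.09 that was not called (limma adjusted p = 0.0649). The group's median was -0.0027. Of 28 other centromere and kinetochore genes 9 fell, led by Casc5, which encodes the kinetochore scaffold KNL1 (-1.68, limited by background on every mutant array), and Cenpn (-1.14). Ska1, a microtubule-binding kinetochore gene, was the only gene of this list that rose, by 0.47 (SE 0.12, limma adjusted p = 0.0393), and it is named because of that value. It was at 7.47, 7.25 and 7.54 on the mutant arrays, against 6.76, 7.01 and 7.06 on the control arrays.

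Of 22 other spindle and centrosome genes 10 fell, with Kif18b (-1.38) and the centriole gene Sass6 (-1.24) in the lead, the second of them at background on every mutant array. Of 5 other cytokinesis genes Cep55, an abscission factor, fell (-0.46), at background on every mutant array. Of 17 cohesin and further condensin genes 4 fell, led by Esco2, which acetylates cohesin in S phase (-1.73), and Sgol2a (-1.02). In turn, 45.5%, 20% and 23.5% of these groups were called lower, against 6.82% of all genes tested.

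Beside the mitosis genes, DNA replication genes were lower too. Of 47 tested, 25 fell and none rose, or 53.2%, with a median difference of -0.65, against 6.82% called lower and a median of 0.03 for all genes tested. The largest were in Cdc6, a licensing factor (-1.97, limited by background on every mutant array), Uhrf1, which keeps DNA methylation at the fork (-1.62), and Mcm5, a helicase subunit (-1.54). The replication mean was 7.31, 7.34 and 7.31 on mutant arrays 1, 2 and 3, against 7.67, 7.94 and 8.39 on control arrays 1, 2 and 3, so that control replicate 3 was again the highest. Whether the replication and mitosis lists differ was not tested.

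**Figure D4:**
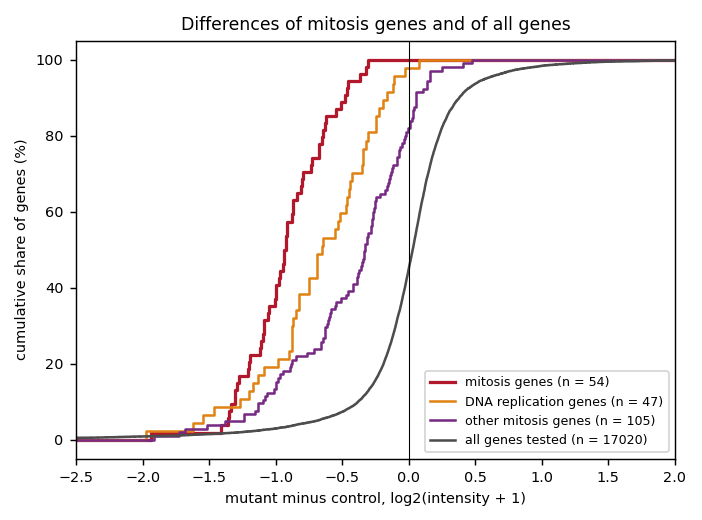
Cumulative share of genes (per cent) against the difference, mutant minus control, on the log2(intensity + 1) scale for the 54 mitosis genes, 47 DNA replication genes, 105 other mitosis genes and all 17020 genes tested. The mitosis curve lies furthest left over most of its height, with a median of -0.93, and the curve of all genes crosses its middle at 0.03.

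Like the mitosis genes, most of the marrow markers fell, with 23 of the 26 called lower, or 88.5%, against 6.82% of all genes tested. The erythroid and neutrophil means ranked the control arrays as the mitosis mean did. The B lymphoid mean was 7.97 on both control replicates 1 and 2, where the mitosis mean was 7.54 and 7.81. From mutant array 1 to mutant array 3 the neutrophil mean went from 6.87 to 6.28, while the mitosis mean stayed between 6.96 and 7.02. Whether these lists vary together was not tested. All 7 erythroid genes fell, such as Slc4a1 (-4.38) and Alas2 (-4.09), and their mean was 5.54, 5.66 and 5.41 on the mutant arrays, against 7.77, 9.10 and 10.18 on the control arrays. Of 11 neutrophil genes 10 fell, such as Mpo (-5.29) and Elane (-4.85), and their mean was 6.87, 6.55 and 6.28 on the mutant arrays, against 9.49, 10.47 and 10.96 on the control arrays. Of 8 B lymphoid genes 6 fell, such as Cd79a (-3.53) and Cd79b (-3.57), and their mean was 6.17, 6.44 and 6.18 on the mutant arrays, against 7.97, 7.97 and 8.70 on the control arrays. The genes above background on every mutant array were 3 of the neutrophil list, 2 of the B lymphoid list and 0 of the erythroid list, so many of these decreases are limited by it.

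Markers of macrophages, vessels and fibrous tissue were higher in the mutants, where 7.84% of all genes tested were called higher. All 7 macrophage genes rose, such as Csf1r (0.73) and Adgre1 (0.73), with means of 8.80, 8.25 and 8.27 on the mutant arrays, against 7.75, 7.46 and 7.62 on the control arrays. Of 6 endothelial genes 4 rose, among them Cdh5 (1.30), while Pecam1 had a difference of 0.46 (limma adjusted p = 0.0800). The endothelial means were 7.24, 7.57 and 7.54 on the mutant arrays, against 6.47, 6.49 and 6.66 on the control arrays, so that control replicate 3 was the highest control here too. Of 5 fibrous genes 4 rose, such as Tnmd (2.38) and Scx (0.62). Of 4 osteoblast genes Col1a1, named because it was the one called, was higher by 1.91, and Dmp1 and Sp7 had differences of 0.01 and -0.38. None of the 8 chondrocyte genes was called.

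**Figure D5:**
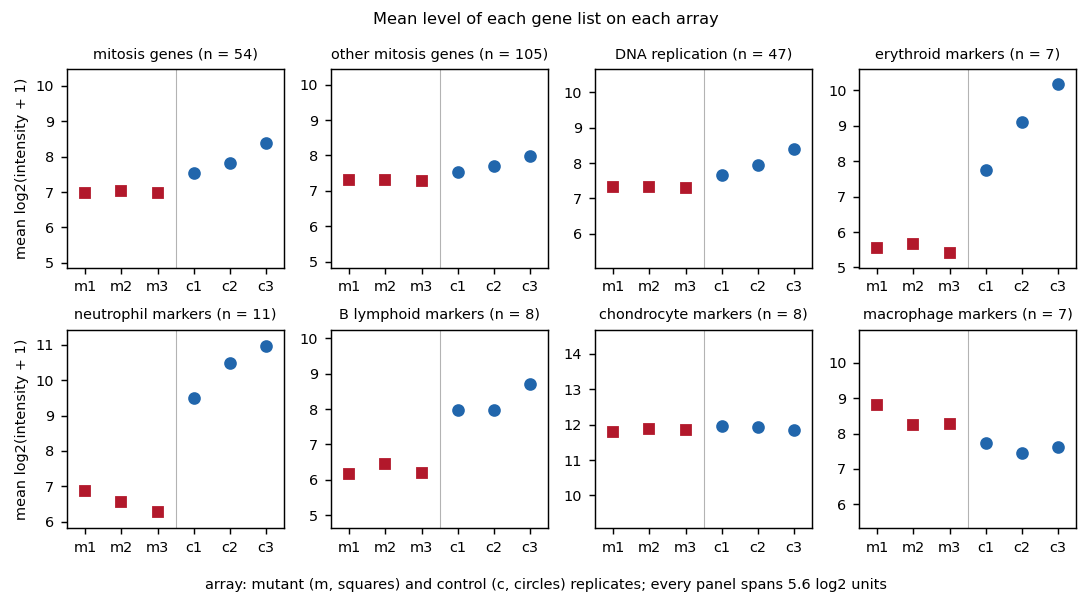
Mean log2(intensity + 1) of 8 gene lists on the mutant arrays (squares, m1 to m3) and the control arrays (circles, c1 to c3), every panel spanning the same range. The mitosis, replication, erythroid and neutrophil means rank the control arrays alike, with replicate 3 highest, while the chondrocyte mean stays between 11.79 and 11.96 on all arrays.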

How the data were processed

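The authors deposited 1 intensity per probe set and array, on a linear scale, for 6 Affymetrix arrays, made from 300 ng of RNA per the labels. The sources used here do not state how these were summarised or normalized, and 0 value columns lacked a sample. Of 35512 probe sets, 21789 had 1 gene in GEO's platform annotation, updated by gene number to RefSeq GRCm38.p6, 1621 had several and 12102 were not listed. Intensities were taken as log2(intensity + 1), the dimmest 25% of probe sets (mean below 5.56) were left out, and the brightest probe set stood for each gene. Mutants were set against controls with limma 3.58.1 in R 4.3.3 (lmFit, eBayes) over 17020 genes. The p-values were adjusted by Benjamini-Hochberg, with a threshold of 0.05. The fit was first run on simulated arrays whose genes varied independently, with the same spread in both groups. Those runs do not show how the fit behaves with the unequal spreads seen here. Depth has no meaning for arrays, and 3 arrays per group limit the precision. The members and lists were chosen with earlier results of these data known. Array values are printed for Mki67, Top2a, Ccna2, Ccnb2, Cdk1 and the most and least negative member of each role, and for a few others named in passing. Other lists are named by their 2 largest called genes per subset (3 for DNA replication) and their first 2 measured markers. Alternatives covered normalization, filter, pseudocount, probe-set rule, variance trend, array weights, a replicate block, single arrays left out and the marrow level as a covariate. Promoters came from RefSeq.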

Additional observations from a re-analysis of the deposited data

How the results depend on the processing

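Without any 1 array, the count of mitosis genes called lower ran from 10 to 49, against 41, that of other mitosis genes from 9 to 47, against 32, that of DNA replication genes from 1 to 36, against 25, and that of all genes called from 936 to 3282, against 2496. The median difference of the mitosis genes then ran from -1.12 to -0.69. Fits without 1 array have fewer samples. Array weights, whose estimate did not converge, called 8006 genes in all and 66 other mitosis genes lower. With the marrow level as a covariate 0 mitosis genes were called lower and their median difference was 0.75, where 6 genes were called in all. Against control replicate 1 alone the median was -0.58, and Spc24 turned to 0.039. Same-numbered deviations correlated at 0.080, 0.213 and -0.083. Mutant arrays 1 and 2 correlated best with the control of their own number, and mutant array 3 did not. So few correlations cannot settle whether replicate numbers pair the samples. With the replicate block 39 mitosis genes, 27 other mitosis genes, 22 replication genes and 2031 genes in all were called. Under the other normalizations, filters, pseudocount, probe-set rule and trend, 39 to 45 mitosis genes were called lower. Where a value moved, the cause was not tested. Signal over background limits the 20 mitosis genes that were at background on all mutant arrays.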
